A study of Mus musculus with 10 samples.

Results

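The 33 genes described here belong to opposing arms of cholesterol handling: the enzymes and sensors that make sterol, and the liver X receptor (LXR) with the transcripts it drives to export sterol and remodel lipids. They were taken from a list of symbols, written with earlier results of these data known, and matched to the array by 1 probe set a gene, the set with the highest mean log2 intensity over the 10 arrays. Of the 33 genes 31 were measured, among 19938 genes in all. They comprise 20 synthesis genes (17 enzymes, with Srebf2, Insig1 and Stard4), 10 LXR genes (the receptor Nr1h3 and 9 targets) and Ch25h, which makes an oxysterol. Acat2 and Nr1h2 were not analysed here. The mean level of 27 of the 31 lay above the median of all genes, a log2 intensity of 5.06, and Lss, Tm7sf2, Scd1 and Ch25h lay below it.

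The cells were splenic type 2 conventional dendritic cells (cDC2, the dendritic cell subset that presents antigen mainly to helper T cells), sorted after collagenase B and DNase digestion and enrichment of CD11c+ cells. Their donors were WT mice (wild type) and CD11c-Cre+ Notch2f/f mice, called Notch2KO here, in which Cre under the CD11c promoter acts on floxed Notch2 in every cell where that promoter is active. Some were left untreated, and others were given 200000000 sheep red blood cells (abbreviated SRBC), a particulate antigen, in the peritoneum and analysed after 24 hours. The untreated groups, WT and Notch2KO, were measured on 2 arrays each, and the SRBC groups on 3 each. The labels give no age, no pooling and no statement that replicates were separate mice, so p-values measure only the spread between these arrays, which may be technical.

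Cells build cholesterol from acetyl-CoA through mevalonate, isoprenoids, squalene and lanosterol. When membrane sterol is low, SREBP-2 (encoded by Srebf2) is released from its INSIG anchor and switches on nearly every enzyme of this chain; when sterol is plentiful, oxysterols and late precursors activate LXR, which pairs with RXR and induces exporters such as ABCA1 and the lipid carrier apolipoprotein E. Macrophages and dendritic cells that take up dying cells or red cells can receive sterol from that cargo.

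The promoters of the members are shown because SREBP-2 acts on synthesis genes together with the factor NF-Y, which binds CCAAT. RefSeq promoter windows (GRCm38.p6, from 250 bases before to 50 bases after the start site) were matched by symbol for 25 of the 33 genes. The windows were searched on both strands for the sterol element TCACNCCAC, the NF-Y box CCAAT and the LXR direct repeat (paired half-sites with a short spacer), and overlaps between motifs were allowed. CCAAT was found in 16 of 17 synthesis genes (94.1%), with Acat2 the exception, in 3 of 7 LXR receptors and targets (42.9%; Mylip, Srebf1 and Lpcat3), in 41.1% of 27025 genes and in 37.4% of 32851 windows of this length. The sterol element was found in 1 of 17 synthesis genes (5.88%), Hmgcs1, in 0 of 7 LXR genes, in 1.44% of all genes and in 1.24% of windows. The direct repeat was found in no window of the 25 genes matched, in 0.074% of all genes and in 0.0639% of windows. A pattern this rare could hardly match among 7 LXR genes, so its absence there carries no information on LXR sites. The 250 bases before the start site are printed for 3 synthesis genes and 2 LXR targets whose levels are described here, 5′ to 3′ on the gene's strand, with matches in capitals (ATTGG is CCAAT read on the other strand).
Hmgcs1, chr13:119690101-119690350, + strand: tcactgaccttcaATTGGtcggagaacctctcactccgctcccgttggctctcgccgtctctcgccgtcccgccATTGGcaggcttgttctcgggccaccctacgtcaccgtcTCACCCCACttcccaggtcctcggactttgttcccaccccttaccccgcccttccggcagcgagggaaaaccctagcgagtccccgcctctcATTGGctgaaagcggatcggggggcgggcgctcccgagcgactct
Idi1, chr13:8885356-8885605, + strand: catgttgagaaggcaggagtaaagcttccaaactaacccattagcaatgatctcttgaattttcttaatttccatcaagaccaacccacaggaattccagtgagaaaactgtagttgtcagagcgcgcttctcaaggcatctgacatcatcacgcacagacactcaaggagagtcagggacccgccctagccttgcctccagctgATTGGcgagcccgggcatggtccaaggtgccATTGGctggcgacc
Insig1, chr5:28071162-28071411, + strand: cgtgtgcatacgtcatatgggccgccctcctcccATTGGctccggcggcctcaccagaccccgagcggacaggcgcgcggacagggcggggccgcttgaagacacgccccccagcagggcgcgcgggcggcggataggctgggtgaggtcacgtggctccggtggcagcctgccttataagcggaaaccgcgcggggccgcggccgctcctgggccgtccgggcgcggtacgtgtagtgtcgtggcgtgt
Lpcat3, chr6:124662854-124663103, + strand: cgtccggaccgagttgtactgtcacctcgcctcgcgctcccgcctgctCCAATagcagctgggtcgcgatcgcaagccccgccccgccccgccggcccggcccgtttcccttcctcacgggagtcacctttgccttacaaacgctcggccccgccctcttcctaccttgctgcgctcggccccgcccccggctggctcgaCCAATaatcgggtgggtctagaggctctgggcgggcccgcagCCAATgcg
Abca1, chr4:53159896-53160145, - strand: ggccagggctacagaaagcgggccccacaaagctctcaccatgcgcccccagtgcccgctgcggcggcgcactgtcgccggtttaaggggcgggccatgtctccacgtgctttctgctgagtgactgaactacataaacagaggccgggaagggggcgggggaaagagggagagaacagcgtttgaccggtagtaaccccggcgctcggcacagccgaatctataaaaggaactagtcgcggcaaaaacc
The printed bases hold 1 sterol element and 3 NF-Y boxes for Hmgcs1, 2 boxes for Idi1, 1 for Insig1, 3 for Lpcat3 and 0 matches for Abca1. A match describes these letters only and is not a measured site, and a missing match does not show that a site is absent.

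Array medians ranged from 29.5 to 31.7 on the deposited linear scale, and precision is limited by how few arrays there are. One array of each SRBC group stood apart over all genes: WT SRBC 1 (r 0.971 and 0.971 with the others, which had 0.990 between them) and Notch2KO SRBC 3 (r 0.979 and 0.975, where the others had 0.988). Deviations from group means on WT SRBC 1 correlated at 0.48 and 0.23 with Notch2KO SRBC 1 and 2. With Notch2KO SRBC 3 they correlated at -0.51, against 0.41 and 0.40 for WT SRBC 2 and 3. A fit without both arrays that stood apart therefore keeps unlike SRBC arrays of the genotypes. Its p-values do not allow for the choice of these arrays from the same data. In that fit, genotype and this split of arrays cannot be told apart after SRBC or in the interaction. The mean of 12 cDC2 marker genes was 8.63 to 8.69 in WT untreated, 7.86 to 7.97 in WT SRBC, 7.86 to 7.96 in Notch2KO untreated and 7.54 to 7.78 in Notch2KO SRBC. Of the 12, Clec4a4, Esam, Dtx1 and Cd4 were lower and Cd209a higher in untreated Notch2KO, while Itgax, Flt3, Zbtb46 and H2-Ab1 passed in neither genotype comparison. The values below are log2 intensity, or log2 differences ± the standard error of the limma fit, with limma p-values adjusted over all 19938 genes and called below 0.05.

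Both arms stood higher in Notch2KO than in WT on average, and the LXR arm by more. The mean log2 intensity of the 10 LXR genes was 5.97 and 6.08 on the WT untreated arrays, 6.26, 6.48 and 6.60 on the WT SRBC arrays, 6.74 and 6.99 on the Notch2KO untreated arrays and 6.90, 6.76 and 7.04 on the Notch2KO SRBC arrays. All 5 Notch2KO arrays lay above all 5 WT arrays, and the WT SRBC arrays above the WT untreated ones. The mean of the 20 synthesis genes was 6.19 and 6.25, then 6.14, 6.18 and 6.18 in WT, and 6.42 and 6.38, then 6.52, 6.46 and 6.31 in Notch2KO, in the same order of groups. Here too the genotypes did not overlap, but untreated and SRBC arrays of Notch2KO did. The LXR mean minus the synthesis mean was -0.22 and -0.18 in WT untreated, 0.12 to 0.42 in WT SRBC, 0.32 and 0.61 in Notch2KO untreated and 0.30 to 0.73 in Notch2KO SRBC. WT untreated was thus the lowest group, and WT SRBC overlapped both Notch2KO groups. These means describe the listed genes and carry no test, and only their change between arrays has meaning, since probe sets differ in brightness.

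**Figure D1:**
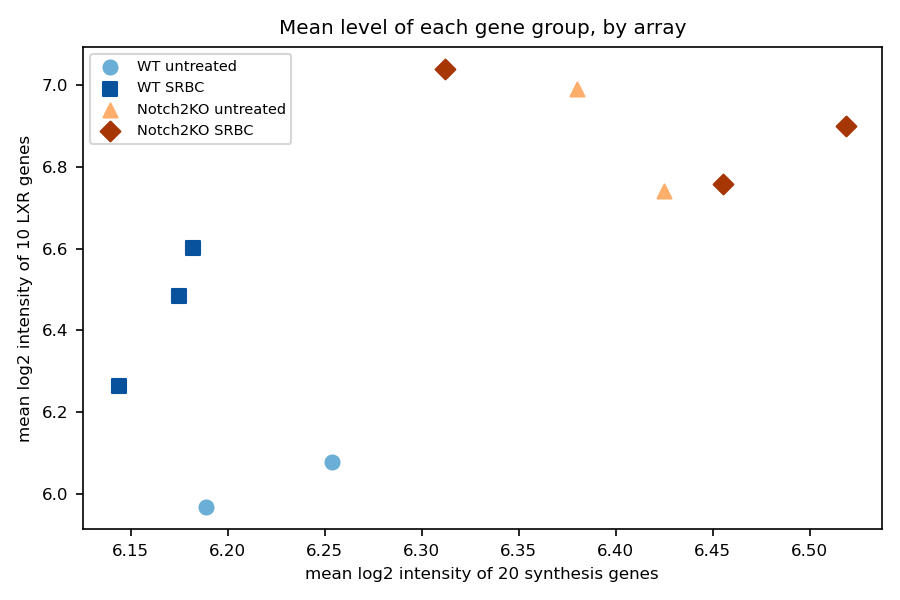
Each point is 1 array, with the mean log2 intensity of the 20 synthesis genes on the x axis and of the 10 LXR genes on the y axis, coloured by group. The WT untreated arrays lie lowest on the LXR axis (5.97 and 6.08), the WT SRBC arrays between 6.26 and 6.60, and the 5 Notch2KO arrays lie above all WT arrays on both axes.

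**Figure D2:**
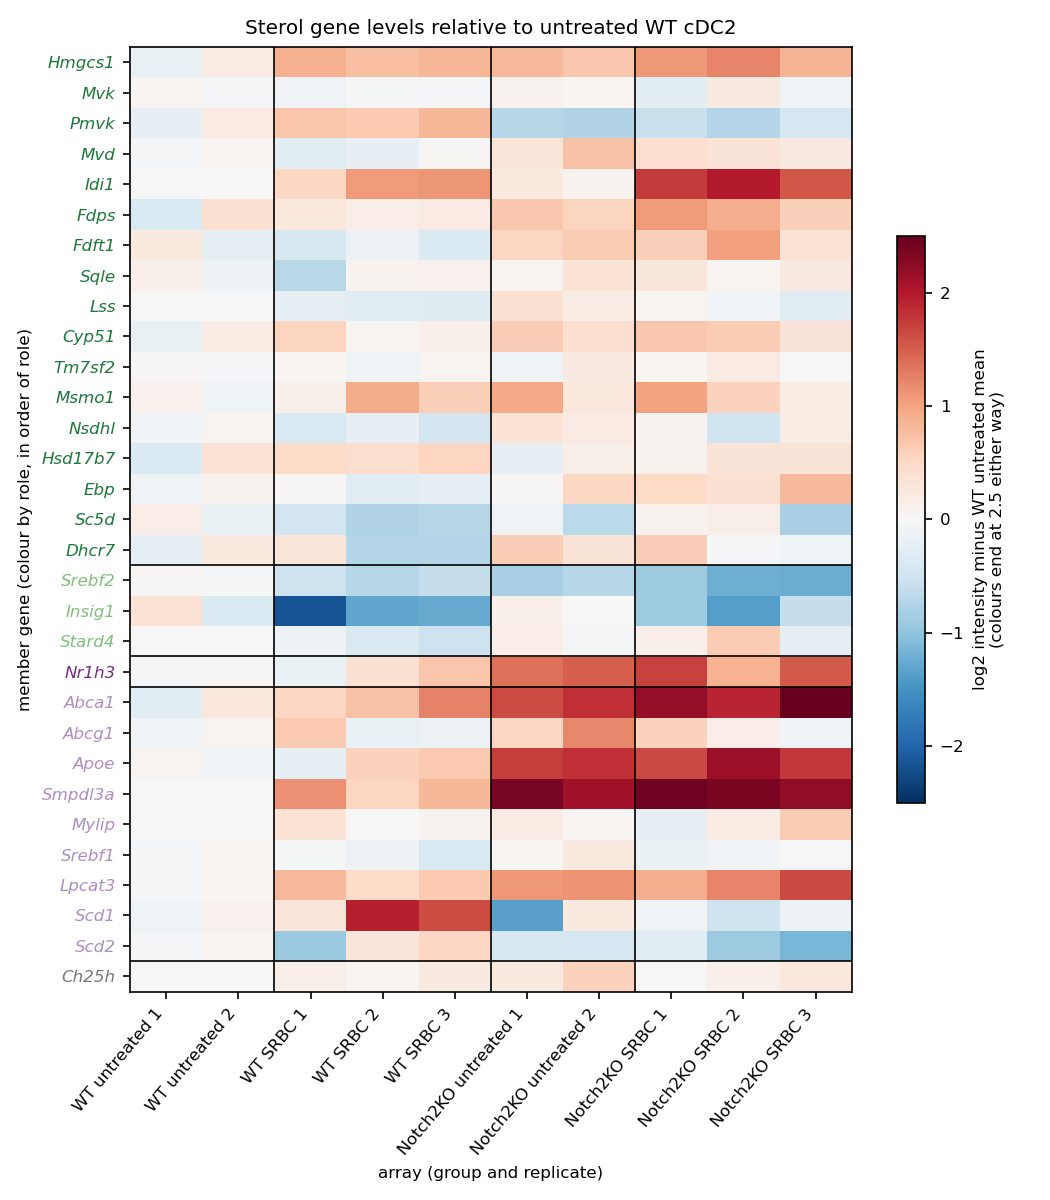
Each cell is the log2 intensity of 1 of the 31 genes (rows, by role) on 1 of the 10 arrays (columns), minus the mean of the 2 WT untreated arrays, with colours ending at 2.5 either way. Smpdl3a, Apoe, Nr1h3, Abca1 and Lpcat3 are above the WT untreated mean on every Notch2KO array, and Insig1 is low on all SRBC arrays.

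The first comparison asked how the genes differed between untreated Notch2KO and untreated WT cDC2. Of the 10 LXR genes 4 were higher and none lower, while 2.95% of all genes were called higher, 2.16% lower and 5.11% either way. Of the 20 synthesis genes 0 were higher and 1 was lower. The median log2 difference was 0.98 over the LXR genes, 0.24 over the synthesis genes and -0.02 over all genes, and 8 of 10 LXR genes and 16 of 20 synthesis genes had a positive difference. Every array of one genotype lay above every array of the other for 21 of the 31 members (18 higher, 3 lower in Notch2KO), beside 48.8% of all genes with 2 arrays against 2.

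Smpdl3a, a secreted phosphodiesterase that hydrolyses nucleotides and is a sensitive LXR target in myeloid cells, had the largest difference of the members. Its log2 intensity was 6.69 and 6.71 in WT untreated, 7.84, 7.23 and 7.54 in WT SRBC, 9.08 and 8.80 in Notch2KO untreated, and 9.14, 9.06 and 8.91 in Notch2KO SRBC. Every Notch2KO array stood above every WT array by more than the spread within either genotype's untreated or treated group. The untreated difference was 2.24 ± 0.23 (4.72-fold, adjusted p = 0.000164; n = 2 and 2).

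Apoe, encoding the lipoprotein that accepts exported sterol, had log2 intensities of 8.52 and 8.37 in WT untreated, 8.21, 9.01 and 9.10 in WT SRBC, 10.17 and 10.27 in Notch2KO untreated, and 10.10, 10.59 and 10.21 in Notch2KO SRBC. The highest WT array stayed below the lowest Notch2KO array. It rose by 1.78 ± 0.28 in untreated Notch2KO (3.43-fold, adjusted p = 0.00337). The Smpdl3a and Apoe calls were kept in all 12 alternatives and all 10 fits that each left out 1 array.

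Nr1h3 encodes LXR-alpha, the receptor isoform typical of macrophages. Its log2 intensity was 4.92 and 4.98 in WT untreated, 4.78, 5.34 and 5.65 in WT SRBC, 6.32 and 6.44 in Notch2KO untreated, and 6.66, 5.83 and 6.49 in Notch2KO SRBC. The genotypes did not overlap, with WT SRBC 3 and Notch2KO SRBC 2 nearest each other. The untreated difference was 1.43 ± 0.30 (2.70-fold, adjusted p = 0.0173), and the call was lost without any 1 of the 4 untreated arrays (adjusted p between 0.0909 and 0.129).

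Lpcat3 encodes the acyltransferase that puts polyunsaturated chains into membrane phospholipids. It stood at 5.70 and 5.78 in WT untreated, 6.55, 6.20 and 6.40 in WT SRBC, 6.82 and 6.87 in Notch2KO untreated, and 6.65, 6.96 and 7.40 in Notch2KO SRBC. The WT untreated arrays were the lowest of the 10 and the WT SRBC arrays were next. The untreated genotype difference was 1.10 ± 0.24 (2.15-fold, adjusted p = 0.0202), and it too was lost without any 1 of the 4 untreated arrays (highest adjusted p = 0.153).

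Abca1, the exporter that loads sterol onto apolipoproteins, stood at 4.16 and 4.69 in WT untreated, 4.95, 5.16 and 5.66 in WT SRBC, 6.06 and 6.26 in Notch2KO untreated, and 6.63, 6.32 and 8.11 in Notch2KO SRBC. The groups formed a rising order without overlap, and Notch2KO SRBC 3 was the highest array. The untreated difference of 1.73 ± 0.47 missed the threshold (adjusted p = 0.0621). Without both arrays that stood apart, adjusted p was 0.000362. Neither is an untreated array, so the difference itself could not change. Calls over all genes in this comparison then rose from 5.11% to 10%. Abcg1, the exporter to high-density lipoprotein, differed by 0.86 ± 0.33 (adjusted p = 0.222).

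The remaining LXR targets did not share the difference. Mylip, the ligase that degrades lipoprotein receptors, differed by 0.12 ± 0.25, and Srebf1, the SREBP of fatty acid synthesis, by 0.14 ± 0.18. Scd1 and Scd2, desaturases that make oleate and palmitoleate, differed by -0.56 ± 0.52 and -0.41 ± 0.41. None of these 4 passed the threshold in this comparison, and each 95% confidence interval included 0.

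**Figure D3:**
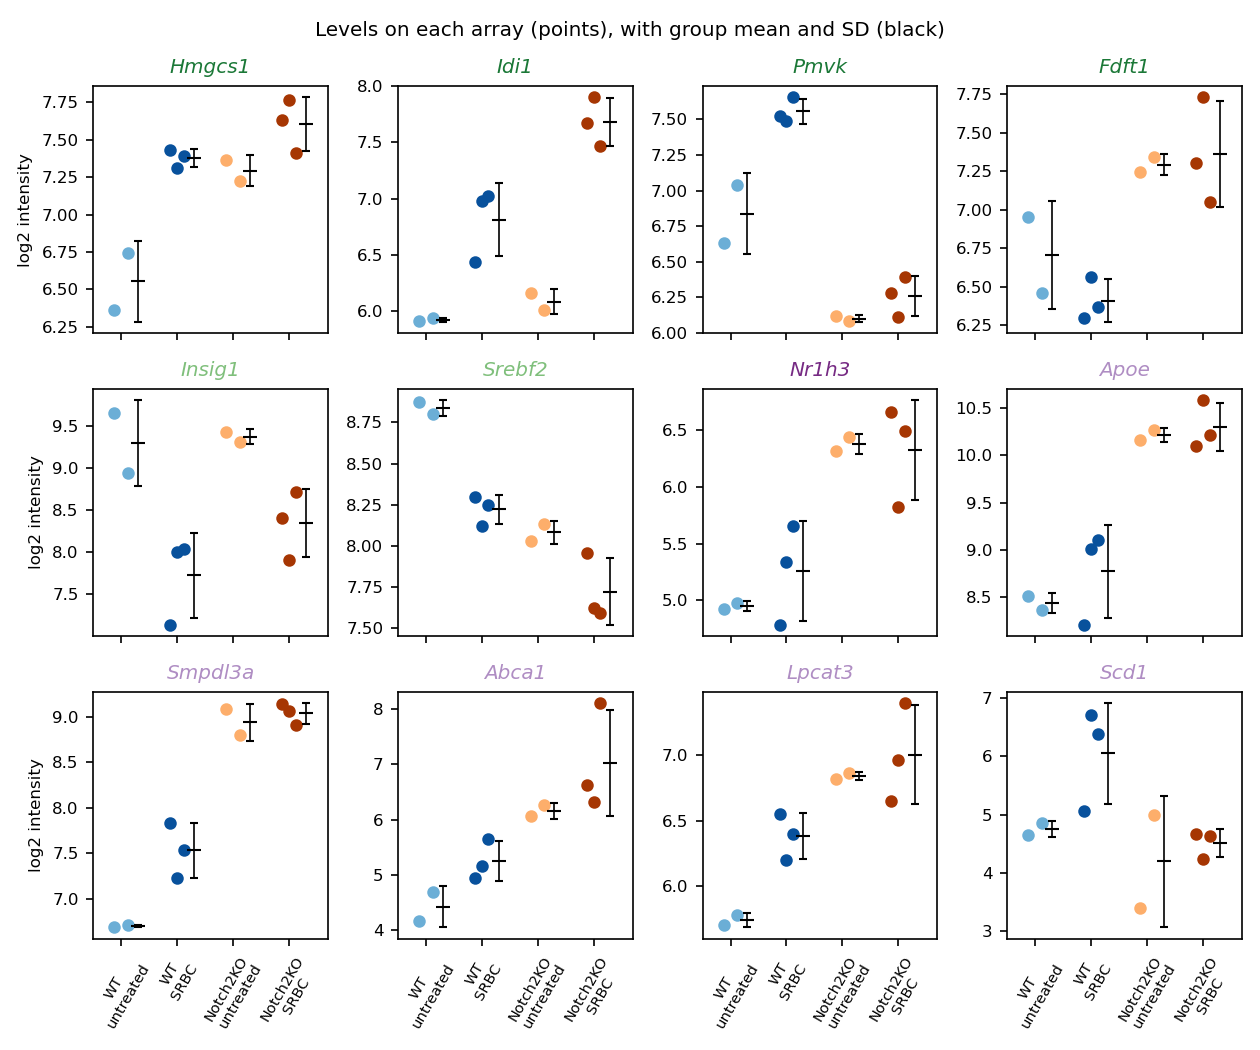
Points are the log2 intensity of 12 of the 31 genes on each array, by group, with the group mean and SD in black beside them (n = 2, 3, 2 and 3). Smpdl3a, Apoe, Nr1h3 and Abca1 separate the genotypes without overlap, Idi1 is highest in Notch2KO SRBC and Insig1 is lower on SRBC arrays of both genotypes.

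On the synthesis side the untreated genotypes differed less. Srebf2, encoding SREBP-2, stood at 8.87 and 8.80 in WT untreated, 8.29, 8.12 and 8.25 in WT SRBC, 8.03 and 8.13 in Notch2KO untreated, and 7.95, 7.62 and 7.59 in Notch2KO SRBC. The WT untreated arrays were the highest of the 10 and the Notch2KO SRBC arrays the lowest. It was the only synthesis gene called, lower in untreated Notch2KO by -0.76 ± 0.20 (1.69-fold, adjusted p = 0.0497). The call lay at the threshold: it was lost without any 1 of 8 arrays, the exceptions being WT SRBC 1 and Notch2KO SRBC 3 (highest adjusted p = 0.286), and with arrays centred on their median (adjusted p = 0.0657).

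Of the 17 enzymes 14 had a positive untreated difference and 0 were called, with Hmgcs1, the synthase that opens the pathway, nearest the threshold among those (0.74 ± 0.21, adjusted p = 0.0686). Fdps, which makes farnesyl diphosphate, differed by 0.62 ± 0.24, Fdft1, the squalene synthase, by 0.59 ± 0.25, Cyp51, the lanosterol demethylase, by 0.52 ± 0.23 and Mvd, the mevalonate diphosphate decarboxylase, by 0.51 ± 0.20. Adjusted p for these 4 lay between 0.226 and 0.328. Among the later enzymes, Msmo1 differed by 0.60 ± 0.33, Dhcr7, the last reductase, by 0.46 ± 0.35, Lss by 0.29 ± 0.14, Ebp by 0.28 ± 0.21, Nsdhl by 0.27 ± 0.23 and Sqle, the squalene epoxidase, by 0.21 ± 0.26. Idi1, Mvk and Tm7sf2 differed by 0.06 to 0.16, Hsd17b7 by -0.02 ± 0.23 and Sc5d by -0.38 ± 0.32. Insig1 and Stard4 differed by 0.07 ± 0.36 and 0.06 ± 0.25, so of the 3 sensing and transport genes Srebf2 alone was called. Pmvk, the phosphomevalonate kinase, went the other way (-0.74 ± 0.20, adjusted p = 0.0575).

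The second comparison set the genotypes against each other after SRBC, where 5.32% of all genes were called, 3.36% higher and 1.96% lower in Notch2KO. Of the 10 LXR genes 4 were higher and 0 lower; of the 20 synthesis genes 3 were higher and 1 was lower. The median difference was 0.37 over the LXR genes, 0.32 over the synthesis genes and -0.02 over all genes, and 8 of 10 and 17 of 20 were positive. Every array of one genotype lay above every array of the other for 14 of the 31 members (10 higher, 4 lower), beside 20.3% of all genes.

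Smpdl3a was higher in Notch2KO by 1.50 ± 0.19 (2.83-fold, adjusted p = 0.00069, n = 3 and 3) and Apoe by 1.53 ± 0.23 (2.88-fold, adjusted p = 0.00265). Abca1 was higher by 1.77 ± 0.38 (3.40-fold, adjusted p = 0.0213) and Nr1h3 by 1.07 ± 0.25 (2.10-fold, adjusted p = 0.0276). The Smpdl3a and Apoe calls were kept in every alternative and every fit without 1 array. Without both arrays that stood apart, Abca1 differed by 1.07 (adjusted p = 0.00876) and Nr1h3 by 0.75 (adjusted p = 0.0684). Abca1 was also lost without WT SRBC 2 (adjusted p = 0.0708), and Nr1h3 without either WT untreated array, WT SRBC 1 or 2, or Notch2KO SRBC 1 or 3 (adjusted p between 0.0519 and 0.11).

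Lpcat3 differed by 0.62 ± 0.19 after SRBC (adjusted p = 0.102). Scd1 had a log2 intensity of 4.66 and 4.86 in WT untreated, 5.07, 6.70 and 6.38 in WT SRBC, 3.40 and 5.0 in Notch2KO untreated, and 4.67, 4.24 and 4.64 in Notch2KO SRBC. WT SRBC 2 and 3 were high, while WT SRBC 1, the array that stood apart, was near the untreated level. The difference after SRBC was -1.53 ± 0.43 (adjusted p = 0.0665), and -2.09 (adjusted p = 0.00425) without both arrays that stood apart. Scd2 differed by -0.73 ± 0.33 (adjusted p = 0.293), and by -0.99 (adjusted p = 0.00938) without them.

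Pmvk was the 1 synthesis gene called lower after SRBC. Its log2 intensity was 6.63 and 7.04 in WT untreated, 7.52, 7.49 and 7.66 in WT SRBC, 6.11 and 6.08 in Notch2KO untreated, and 6.28, 6.11 and 6.39 in Notch2KO SRBC. All 5 Notch2KO arrays were below all 5 WT arrays. The difference after SRBC was -1.30 ± 0.16 (2.46-fold lower, adjusted p = 0.000709), and its call was kept in all 12 alternatives and all 10 fits without 1 array.

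Idi1, the isomerase that makes dimethylallyl diphosphate, stood at 5.91 and 5.94 in WT untreated, 6.44, 6.98 and 7.02 in WT SRBC, 6.17 and 6.01 in Notch2KO untreated, and 7.67, 7.90 and 7.47 in Notch2KO SRBC. Untreated arrays of both genotypes lay close together, and the Notch2KO SRBC arrays were the highest. After SRBC it was higher in Notch2KO by 0.87 ± 0.19 (1.83-fold, adjusted p = 0.0224). The call was lost without Notch2KO SRBC 1 or 2 (highest adjusted p = 0.0852), and another probe set of Idi1 gave 0.80.

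Fdft1 commits farnesyl diphosphate to sterol, and its log2 intensity was 6.95 and 6.46 in WT untreated, 6.30, 6.57 and 6.37 in WT SRBC, 7.25 and 7.34 in Notch2KO untreated, and 7.31, 7.73 and 7.05 in Notch2KO SRBC. The genotypes did not overlap in either state. Among SRBC arrays it was higher in Notch2KO by 0.95 ± 0.20 (1.94-fold, adjusted p = 0.0198). The call was lost without WT SRBC 3 or Notch2KO SRBC 1 or 2 (highest adjusted p = 0.0705), and another probe set gave 0.55. Ebp, the sterol isomerase of the late pathway, ranged from 4.95 to 5.24 in WT SRBC and from 5.60 to 6.03 in Notch2KO SRBC. It was higher in Notch2KO by 0.72 ± 0.17 (1.65-fold, adjusted p = 0.0318). That call was lost without either WT untreated array, WT SRBC 2 or 3, or Notch2KO SRBC 1 or 3 (highest adjusted p = 0.111).

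The other synthesis genes gave smaller or more variable differences after SRBC. Fdps differed by 0.65 ± 0.20 (adjusted p = 0.0891), Mvd by 0.49 ± 0.16 (adjusted p = 0.124) and Stard4, a carrier of sterol between membranes, by 0.52 ± 0.20 (adjusted p = 0.204). Mvk, Tm7sf2, Msmo1 and Lss, which act at the mevalonate kinase, sterol reductase, C4 demethylation and lanosterol synthase steps, differed by 0.00 to 0.18. Hmgcs1 gave 0.23 ± 0.17, Cyp51 0.29 ± 0.19, Nsdhl 0.28 ± 0.19, Sqle 0.35 ± 0.22 and Hsd17b7 -0.24 ± 0.19, with overlapping genotypes for all but Hsd17b7. Insig1 differed by 0.62 ± 0.29 and Srebf2 by -0.50 ± 0.16 (adjusted p = 0.109), and of the LXR targets Abcg1, Mylip and Srebf1 differed by 0.12, 0.06 and 0.10. Sc5d differed by 0.46 ± 0.26 (adjusted p = 0.419) and Dhcr7 by 0.54 ± 0.29 (adjusted p = 0.373). Without both arrays that stood apart 8 synthesis genes were called in place of 4, as calls over all genes rose from 5.32% to 11.9%. Sc5d (0.85), Dhcr7 (1.01), Stard4 (0.83) and Fdps (0.81) were then also higher. For Sc5d that fit set 7.13 and 7.18 in Notch2KO against 6.29 and 6.32 in WT. The arrays left out stood at 6.23 (Notch2KO SRBC 3) and 6.56 (WT SRBC 1). These added calls cannot be told apart from the split of SRBC arrays described above.

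**Figure D4:**
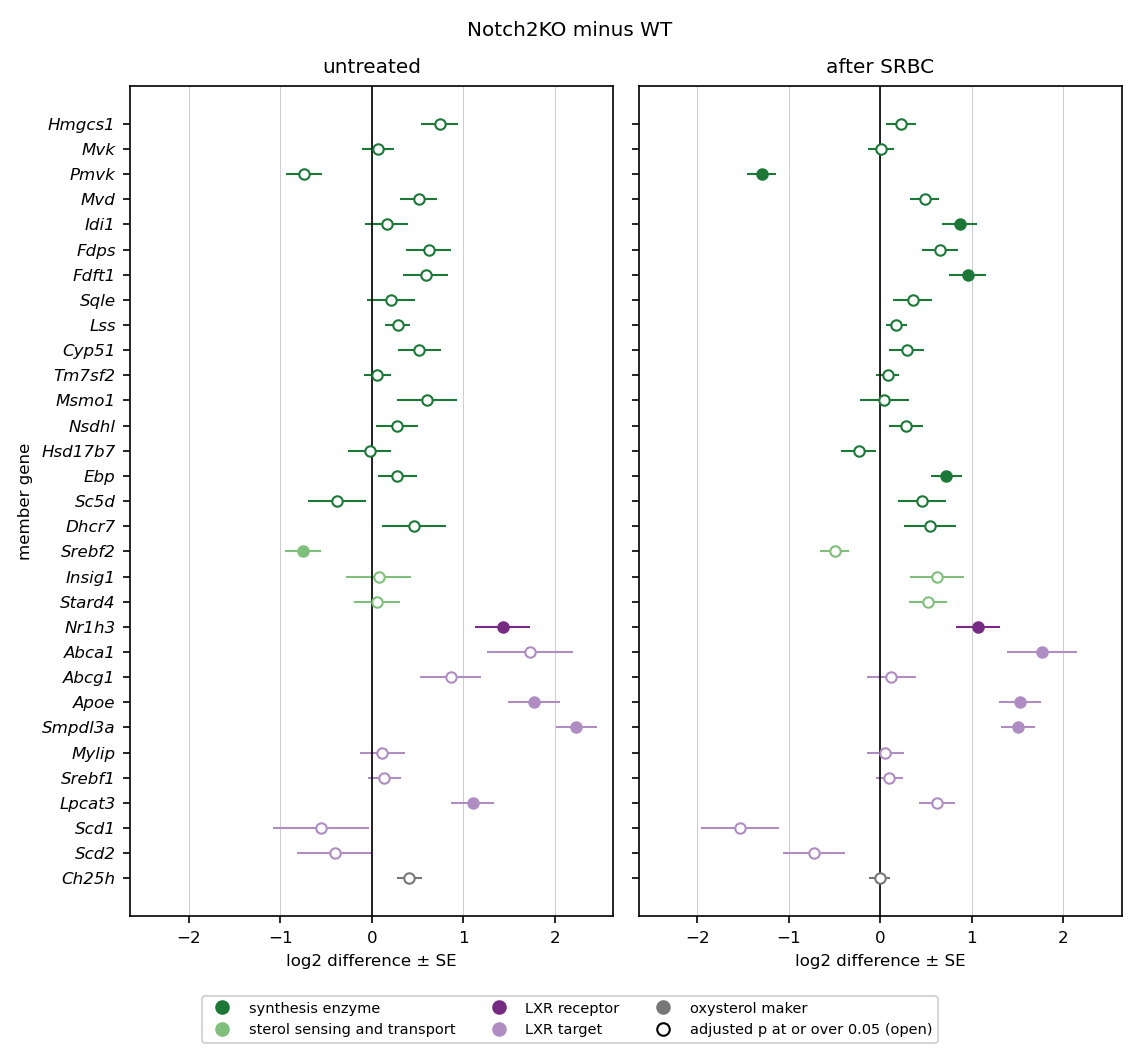
Points are log2 differences, Notch2KO minus WT, with SE bars, for the 31 genes in untreated mice (left) and after SRBC (right), filled where the adjusted p was below 0.05 and coloured by role. Smpdl3a, Apoe and Nr1h3 are filled in both panels (2.24, 1.78 and 1.43 untreated), and Pmvk lies farthest below 0 among the filled points after SRBC (-1.30).

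Markers of other cells moved with the genotype. The mean log2 intensity of 17 measured of 18 macrophage markers was 5.42 to 5.54 in WT untreated, 6.03 to 6.45 in WT SRBC, 6.80 to 7.13 in Notch2KO untreated and 6.95 to 7.35 in Notch2KO SRBC, an order of groups like that of the LXR mean. In each genotype comparison 9 of the 17 were higher in Notch2KO and 0 lower. C1qa was at 5.14 and 5.26 in WT untreated and 7.76 and 7.55 in Notch2KO untreated. Adgre1 went the other way, from 8.55 and 8.34 in WT untreated to 7.86 and 7.37 in Notch2KO untreated. Marco did so too, from 4.63 and 4.58 to 4.48 and 4.23. After SRBC the genotypes overlapped for both. Of the 17 genes, 14 then had a positive and 3 a negative difference, Timd4 and Spic among the negative. Timd4 had the lowest (-0.89), at 6.13, 7.70 and 7.38 in WT SRBC and 5.47, 5.98 and 7.09 in Notch2KO SRBC. Marco was between 4.23 and 4.94 and Adgre1 between 7.37 and 9.13 on all 10 arrays. The mean of 10 measured of 12 monocyte markers was 7.44 to 7.51, 7.59 to 7.87, 8.55 to 8.95 and 8.39 to 9.29 in the same order. Of these 10, 4 were higher and 1 lower in untreated Notch2KO, and 6 higher and 1 lower after SRBC. Their untreated differences ran from -2.88 to 4.87. The mean of 9 cDC1 markers was 5.84 to 6.21 and 6.25 to 6.39 in WT, and 6.84 to 6.90 and 6.56 to 6.73 in Notch2KO; 4 were higher and 1 lower untreated, and 3 higher and 1 lower after SRBC. Of 6 measured of 7 B cell markers 3 were lower in untreated Notch2KO and 2 after SRBC, with means of 5.58 to 5.64 and 5.04 to 5.08 in WT, and 4.76 to 4.87 and 4.65 to 4.89 in Notch2KO. Of 7 measured of 12 erythroid markers 1 was lower in each genotype comparison, and of 5 measured of 6 T cell markers 0 were called in either. The part of these lists in the LXR and synthesis differences was not tested. In these bulk samples, fewer cells of a type and less RNA per cell cannot be told apart.

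The third comparison asked what SRBC did in WT cells, where 3.79% of all genes were called, 1.82% higher and 1.97% lower. Of the 20 synthesis genes 2 were higher and 1 lower, and of the 10 LXR genes 0 were called in either direction (3 had an unadjusted p below 0.05). The median difference was -0.16 over the synthesis genes, 0.32 over the LXR genes and 0.02 over all genes. Every SRBC array lay above or every one below the untreated arrays for 16 of the 31 members (10 higher, 6 lower), beside 33.5% of all genes.

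Hmgcs1 stood at 6.36 and 6.75 in WT untreated, 7.43, 7.31 and 7.39 in WT SRBC, 7.37 and 7.22 in Notch2KO untreated, and 7.63, 7.77 and 7.41 in Notch2KO SRBC. Both WT untreated arrays lay below the other 8 arrays. The WT response was 0.82 ± 0.19 (1.77-fold, adjusted p = 0.0353; n = 3 and 2). Idi1 rose by 0.89 ± 0.21 in WT (1.85-fold, adjusted p = 0.0437), and the mean of both its probe sets gave 0.71 (adjusted p = 0.11).

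Insig1 anchors SREBP in the endoplasmic reticulum and is itself an SREBP target. Its log2 intensity was 9.66 and 8.94 in WT untreated, 7.14, 8.00 and 8.04 in WT SRBC, 9.43 and 9.31 in Notch2KO untreated, and 8.41, 7.91 and 8.71 in Notch2KO SRBC. All 6 SRBC arrays were below all 4 untreated arrays, and WT SRBC 1 was the lowest. In WT it fell by 1.57 ± 0.33 on the log2 scale (2.98-fold, adjusted p = 0.0235), and by 1.28 (adjusted p = 0.00424) without both arrays that stood apart. In Notch2KO the difference was -1.03 ± 0.33 (adjusted p = 0.273), and -1.21 (adjusted p = 0.0247) without those arrays.

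The Hmgcs1 and Idi1 calls in WT were each lost without either WT untreated array, WT SRBC 2 or 3, either Notch2KO untreated array or Notch2KO SRBC 1 (adjusted p between 0.056 and 0.353), and Insig1 without either WT untreated array (highest adjusted p = 0.284). With only WT arrays in the fit, none of the 3 passed (adjusted p = 0.0742, 0.0878 and 0.0518). The mean of 19 measured of 20 genes of the digestion stress response was 10.56 to 10.72 in WT untreated and 8.80 to 9.29 in WT SRBC, and 10.35 to 10.44 and 8.78 to 9.72 in Notch2KO. By replicate, the SRBC arrays stood at 9.29, 8.80 and 8.88 in WT and 9.72, 9.46 and 8.78 in Notch2KO. WT SRBC 1 and Notch2KO SRBC 1 and 2 were thus above the other SRBC arrays, the same split of arrays as described above. The part of digestion stress in that split was not tested. Of these 19 genes 9 were lower after SRBC in WT and 4 in Notch2KO. With that mean as a covariate, Hmgcs1 (1.16, adjusted p = 0.253), Idi1 (0.80, adjusted p = 0.517) and Insig1 (-2.73, adjusted p = 0.113) were not called in WT. All-gene calls in that fit fell from 756 to 31 in WT, and the part of digestion stress in these responses was not tested.

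Other members were not called in WT. Pmvk gave 0.72 ± 0.18 (adjusted p = 0.0505), Smpdl3a 0.83 ± 0.21 (adjusted p = 0.0503) and Srebf2 -0.62 ± 0.18 (adjusted p = 0.0875). Abca1 gave 0.83 ± 0.43 (adjusted p = 0.372), Lpcat3 0.64 ± 0.22 (adjusted p = 0.143) and Scd1 1.29 ± 0.48 (adjusted p = 0.184), with every SRBC array above both untreated arrays for these 3. Without both arrays that stood apart, 4 LXR genes were called higher after SRBC in WT, with 11.5% of all genes called in place of 3.79%: Scd1 (1.78), Abca1 (0.98), Smpdl3a (0.68) and Apoe (0.61). Values of the rest included Sc5d (-0.65 ± 0.29), Msmo1 (0.55 ± 0.30), Hsd17b7 (0.48 ± 0.21), Dhcr7 (-0.39 ± 0.32), Nsdhl (-0.35 ± 0.21) and Stard4 (-0.34 ± 0.23), with adjusted p between 0.275 and 0.61. The macrophage marker mean given above was also higher in WT SRBC than in WT untreated, with 4 of its 17 genes called, and its part was not tested.

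In Notch2KO cells SRBC changed 0.306% of all genes, 0.14% higher and 0.166% lower. Of the 31 members 1 was called: Idi1 rose by 1.60 ± 0.21 (3.02-fold, adjusted p = 0.0188; n = 3 and 2). Both its probe sets were higher on the SRBC arrays, the other by 1.33. The call was lost without either Notch2KO untreated array or Notch2KO SRBC 1 or 2 (adjusted p between 0.0501 and 0.173) and with the digestion stress mean as a covariate (1.53, adjusted p = 0.129), where all-gene calls fell from 61 to 5. The medians were 0.02 over the synthesis genes, 0.08 over the LXR genes and 0.03 over all genes. For 8 of the 31 members every SRBC array lay above (3) or below (5) the untreated ones, beside 28.3% of all genes. Smpdl3a gave 0.10 ± 0.21, Apoe 0.08 ± 0.26 and Nr1h3 -0.06 ± 0.27, with 95% confidence intervals from -0.36 to 0.55, -0.49 to 0.65 and -0.66 to 0.55. Abca1 gave 0.86 ± 0.43 (adjusted p = 0.549), Abcg1 -0.63 ± 0.30 (adjusted p = 0.524) and Hmgcs1 0.31 ± 0.19 (adjusted p = 0.642).

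**Figure D5:**
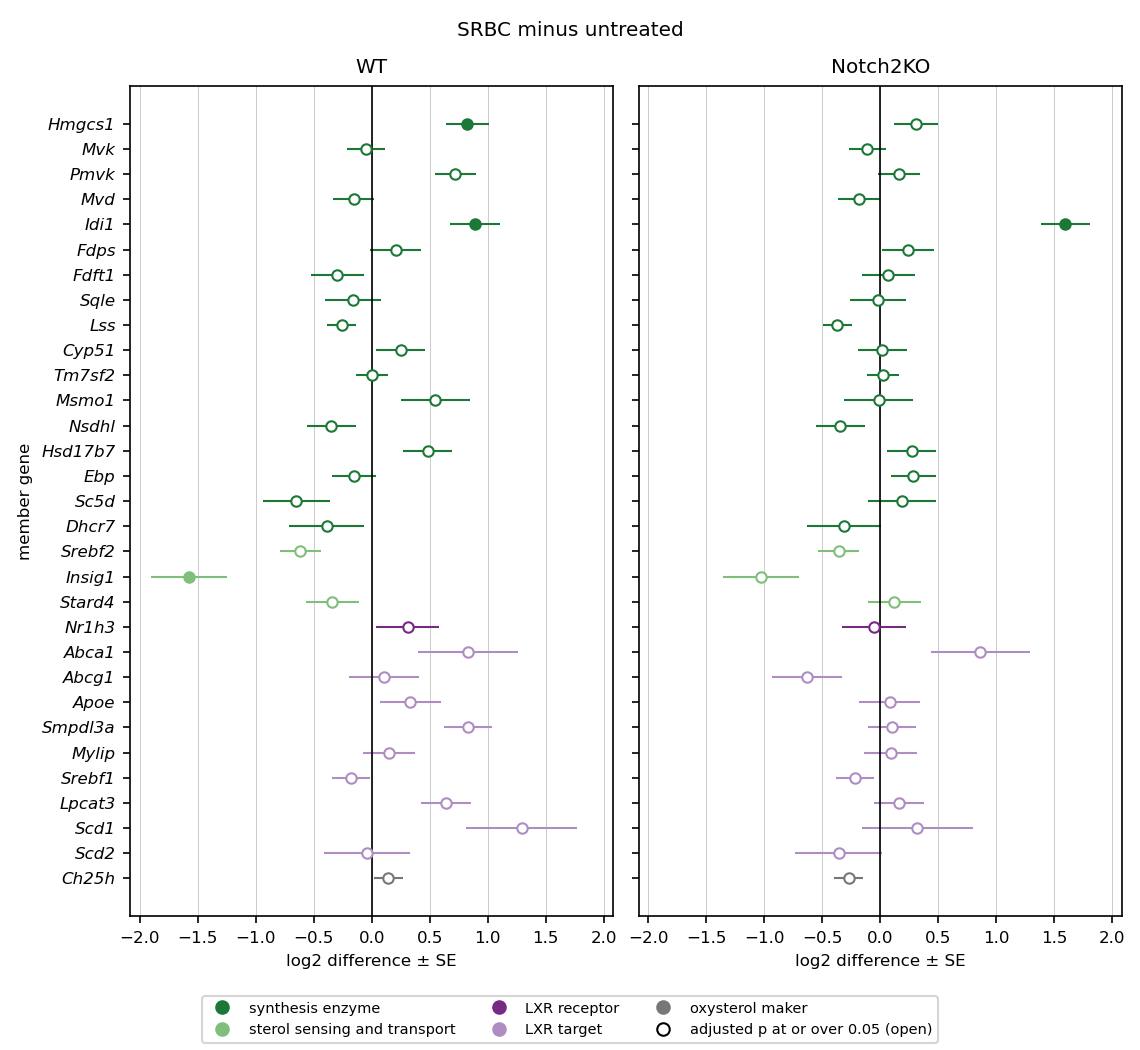
Points are log2 differences, SRBC minus untreated, with SE bars, for the 31 genes in WT (left) and Notch2KO (right), filled where the adjusted p was below 0.05 and coloured by role. Hmgcs1, Idi1 and Insig1 are filled in WT (0.82, 0.89 and -1.57), and Idi1 alone is filled in Notch2KO (1.60).

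Whether the SRBC response itself differed between genotypes was tested by the interaction, in which the WT response is subtracted from the Notch2KO response. It was called for 0 of the 31 members and for 0.0201% of all genes in limma's fit, with a smallest adjusted p of 0.705 among the members. An unadjusted p below 0.05 was found for 4 members, beside 6.47% of all genes: Idi1 (0.71 ± 0.30), Pmvk (-0.56 ± 0.25), Smpdl3a (-0.74 ± 0.29) and Ch25h (-0.42 ± 0.18). A negative value was found for 9 of 10 LXR genes, with a median of -0.34 against 0.01 over all genes. With both arrays that stood apart left out, 1 member was called, Sc5d, which encodes the lathosterol oxidase (1.23, adjusted p = 0.0492). In that fit 3.03% of all genes were called in place of 0.0201%. The responses and the genotype differences share arrays, so their values are set side by side only.

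Other genes of sterol traffic were taken from lists. Of 15 measured of 20 genes of sterol sensing, uptake and esterification, 4 were higher and 0 lower in untreated Notch2KO, beside 2.95% and 2.16% of all genes. After SRBC 5 were higher and 0 lower, beside 3.36% and 1.96%. Npc2, which carries sterol out of the lysosome, differed by 2.19 ± 0.29 untreated and 1.65 ± 0.24 after SRBC, and Nceh1, a cholesteryl ester hydrolase, by 1.57 ± 0.30 and 1.69 ± 0.24. Lrp1, a lipoprotein receptor, differed by 2.22 ± 0.31 and 1.10 ± 0.25, and the mitochondrial protein Tspo by 1.21 ± 0.25 and 1.38 ± 0.20. Lipa, the lysosomal acid lipase, differed between genotypes by 1.50 ± 0.44 untreated (adjusted p = 0.0857) and by 2.19 ± 0.36 after SRBC (adjusted p = 0.00411). In the WT response Gramd1b, a sterol transporter at membrane contacts, rose by 1.01 ± 0.22 and Stard3 fell by 0.82 ± 0.20, and 0 of the 15 were called in the Notch2KO response.

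Of 9 measured of 12 further LXR partners and targets, 4 were higher and 1 lower in untreated Notch2KO, beside 5.11% of all genes called. After SRBC 3 were higher and 0 lower, beside 5.32% called. Lpl, lipoprotein lipase, stood at 3.96 and 3.94 in WT untreated, 4.46, 4.52 and 4.43 in WT SRBC, 9.40 and 8.83 in Notch2KO untreated, and 8.68, 8.72 and 9.33 in Notch2KO SRBC, with no overlap. It was higher in Notch2KO by 5.17 ± 0.25 untreated and by 4.44 ± 0.21 after SRBC. Pltp, the phospholipid transfer protein, was higher by 2.60 ± 0.27 and 2.15 ± 0.22, and the engulfment receptor Mertk by 1.77 ± 0.34 and 1.30 ± 0.28. Mertk and Cd5l of this list are also in the macrophage list. Rxra, the LXR partner, rose in untreated Notch2KO (0.96 ± 0.23) and Tgm2, a transglutaminase, fell by 2.27 ± 0.40. Rxrb, a paralogue of Rxra, fell by 0.80 ± 0.17 in the WT response.

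LXR also drives fatty acid synthesis through SREBP-1c. Of 11 measured of 12 genes of that pathway 1 was called in any comparison, Acaca, the acetyl-CoA carboxylase. It was lower in the WT response (-0.63 ± 0.15, adjusted p = 0.0426), where 3.79% of all genes were called. It was higher in Notch2KO after SRBC (0.52 ± 0.14, adjusted p = 0.0487), where 5.32% of all genes were called.

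Ch25h, which makes the 25-hydroxycholesterol from which the ligand of the migration receptor GPR183 is built, lay between 3.41 and 3.99 on all 10 arrays. It differed by 0.41 ± 0.14 between untreated genotypes (adjusted p = 0.142) and was called in no comparison. Cyp7b1, the enzyme that turns 25-hydroxycholesterol into that ligand, stood at 4.23 and 4.09 in WT untreated, 4.72, 4.88 and 4.82 in WT SRBC, 4.78 and 5.07 in Notch2KO untreated, and 5.65, 6.08 and 5.58 in Notch2KO SRBC. It was lowest in WT untreated and highest in Notch2KO SRBC. The genotype difference was 0.77 ± 0.19 untreated (adjusted p = 0.0372) and 0.97 ± 0.15 after SRBC (adjusted p = 0.00329). Hsd3b7, which breaks the ligand down, differed by 0.19 ± 0.18 and 0.27 ± 0.15 and was not called.

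Gpr183 itself stood at 10.49 and 10.36 in WT untreated, 10.02, 9.91 and 9.76 in WT SRBC, 8.74 and 9.02 in Notch2KO untreated, and 9.37, 9.51 and 9.18 in Notch2KO SRBC. All Notch2KO arrays lay below all WT arrays. The difference was -1.55 ± 0.19 untreated (2.92-fold lower, adjusted p = 0.000596) and -0.54 ± 0.16 after SRBC (adjusted p = 0.0752). Its interaction of 1.00 ± 0.25 was not called (adjusted p = 0.336).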

How the data were processed

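RNA of sorted splenic cDC2 was labelled with biotin (Ambion WT Expression kit, per the labels' protocols) and hybridised to one-colour arrays, 10 in 4 groups. The table deposited by the authors holds linear intensity values between 2.57 and 11437. Array medians were nearly equal, and the sources used here do not give the authors' normalization method. Detection p-values were not part of the analysis, and no level was tested against background. Values were log2 transformed. Of 28853 probe sets 21789 listed 1 gene symbol, 1621 several and 5443 none in the platform annotation; a gene (19938 in all) was represented by its brightest probe set on average, and dim genes were kept.

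A single limma model (lmFit; eBayes with trend) held a mean for each group, on 6 residual degrees of freedom and 5.25 prior ones. It gave 5 two-sided comparisons: SRBC against untreated within each genotype, Notch2KO against WT within each state, and the interaction. Benjamini-Hochberg adjustment ran over all genes, with a threshold of 0.05. On simulated data with independent normal values and no split of arrays, the fit called 34% of log2 changes of 1 in the interaction. In the other comparisons it called 58% to 74% of them. For log2 changes of 2 it called 85% in the interaction and 94% to 100% in the others. Of its calls, 2.4% to 7.51% were unchanged genes. No test was made over a gene list; lists are described by counts and medians beside all genes.

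The text names all 33 members, the genes past the threshold of 4 related lists (at most 6 for a list and comparison) and Gpr183, Cyp7b1 and Hsd3b7 whatever their p. Marker and stress lists are given as counts and ranges of their mean; their members given by name were chosen after their values were seen. The members and lists were chosen with earlier results of these data known. Alternatives tried were averaged probe sets, quantile normalization, median centring, no trend, robust variances, array weights and a fit of only the groups compared. Others were a block for the replicate number, genes above the median level, a pseudocount of 16, and fits without each array or without both arrays that stood apart. The arrays that stood apart were identified from these data, and the digestion stress mean as a covariate was chosen after seeing the data. Software was limma 3.58.1 in R 4.3.3, and pandas 2.3.3, NumPy 2.4.6 and matplotlib 3.10.9 in Python 3.11.15.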

Additional observations from a re-analysis of the deposited data

How the results depend on the processing

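Of the 17 calls of a member in a comparison, 0 reversed in the 12 alternatives and 10 fits without 1 array, and 5 were kept in all of them: Apoe and Smpdl3a in both genotype comparisons and Pmvk after SRBC. Quantile normalization, no trend, a robust variance model, array weights and genes above the median level kept all 17, and only the groups compared kept 9.

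The count of synthesis genes called in the WT response (3) became 5 with no trend and with array weights, 0 with only the groups compared or the digestion stress covariate, 6 without both arrays that stood apart, and 0 to 4 without 1 array. The count of LXR genes called there (0) became 1 with the mean of probe sets, no trend, the robust model and genes above the median level, 2 with array weights, 4 without both arrays, and 0 to 1 without 1 array. In the Notch2KO response the synthesis count (1) became 2 without both arrays, 0 with the covariate and 0 to 1 without 1 array; the LXR count stayed at 0 in each fit without 1 array. Between untreated genotypes the synthesis count (1) became 2 with quantile normalization, 0 with centred arrays or a pseudocount of 16, 3 with no trend, array weights, only the groups compared, genes above the median level, without both arrays or with the covariate, and 0 to 3 without 1 array; the LXR count (4) was 2 to 5 without 1 array. After SRBC the synthesis count (4) became 1 with only the groups compared, 8 without both arrays and 1 to 5 without 1 array, and the LXR count (4) became 2 with only the groups compared and 2 to 5 without 1 array. The interaction count (0) became 1 without both arrays and was 0 in each fit without 1 array. Calls over all genes moved too. In the WT response 3.79% became 4.52% with no trend, 9.46% with array weights, 2.8% with only the groups compared and 11.5% without both arrays. Between untreated genotypes 5.11% became 9.14% with array weights, 9.86% with only the groups compared and 10% without both arrays. After SRBC 5.32% became 3.14% with only the groups compared and 11.9% without both arrays. The cause was not tested. Only the groups compared leaves fewer arrays to estimate the spread, and counts there fell in some comparisons and rose in another.

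The labels do not say that replicate numbers mark a shared mouse, batch or day, so they were not taken as a pairing. Deviations of same-numbered arrays correlated between -0.22 and 0.48 in 13 pairs, above 0.1 in 7. With the replicate number as a block, the LXR count in the WT response became 1 and the untreated synthesis count 0. The LXR count rose from 4 to 5 in both genotype comparisons, with Abca1 called untreated (1.73, adjusted p = 0.00451) and Scd1 after SRBC (-1.53, adjusted p = 0.0269). With that block, calls over all genes were 3.59% in the WT response, 5.89% between untreated genotypes and 6.62% after SRBC. Of the 17 calls 15 were kept; Idi1 in the WT response (adjusted p = 0.0627) and Srebf2 (adjusted p = 0.0533) were not. Groups of 2 and 3 arrays limit every comparison, and Ch25h, Lss, Tm7sf2 and Scd1, below the median level of all genes, were not tested against background.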
